A study of Mus musculus with 39 samples.

Results

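Luminal hormone receptors and lineage factors are described here as 8 genes: Esr1, Pgr, Foxa1, Gata3, Tfap2a, Tfap2c, Grhl2 and Cited1. Their rows were found in the expression table by symbol, ignoring case, and all 8 were among its 20520 genes. All 8 also passed the filter on low values that left 13650 genes for testing.

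In the mammary gland, estrogen receptor alpha (Esr1) and the progesterone receptor (Pgr) are ligand-activated transcription factors of the hormone-sensing luminal cells, and Pgr is itself a classical estrogen target. Foxa1 opens chromatin for estrogen receptor binding, and Gata3 specifies and maintains the luminal lineage. The AP-2 factors Tfap2a and Tfap2c act in luminal epithelium and are known regulators of ERBB2 and ESR1 in human breast cancer cells. Grhl2, a Grainyhead-like factor, sustains epithelial junction genes, and Cited1 is a transcriptional coregulator that binds CBP/p300 and can enhance estrogen receptor activity.

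The study profiled PB2 mouse breast tumors carrying HER2 either in full length (FL-HER2) or as p95HER2, a shortened form without most of the extracellular domain. Poly(A) RNA of tumors collected 10 or 22 days after implantation was sequenced in 39 directional libraries. There were 10 libraries of PB2-FL-HER2 at day 10, 9 of PB2-FL-HER2 at day 22, 10 of PB2-p95HER2 at day 10 and 10 of PB2-p95HER2 at day 22. All 4 groups share the PB2 tumor background, and all carry a HER2 construct. The sources used here do not give the origin of PB2, the host strain and age, the promoter of either construct or whether a line was 1 clone. Nor is it stated that the tumors came from separate animals or that a library holds 1 tumor. The p-values therefore measure only how far these libraries spread, and part of that spread may be technical. In bulk tissue, fewer cells of a type and less RNA per cell cannot be told apart.

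Levels are given in CPM, the usual depth-scaled read count, and library depth was such that 1 CPM stood for 21.8 to 44.4 reads. Fitted changes and folds come from the deposited values, which are scaled by a size factor per library. They therefore need not equal ratios of CPM levels. In FL-HER2, mean CPM went from 106 to 110 with time for Tfap2a and from 108 to 113 for Foxa1. The fitted change was -0.06 for each, not past the test. The column names of the deposited table carry a tumor number, with 5 digits for 8 libraries of FL-HER2 at day 10 and with 3 digits for the other libraries. The title of 1 of these 8 libraries, replicate 8, gives a shorter number than its column name, and the column name was used. Epithelial identity was present throughout, with all 10 pan-epithelial markers detected in every library and taking 0.207% to 0.314% of reads. Of the 16 fibroblast markers, none of which was at 0 in any library, 13 were lower in p95HER2 than in FL-HER2 at day 10, 15 fell with time in FL-HER2 and 12 fell with time in p95HER2. Of all genes tested, 26.1%, 30.6% and 18.6% were lower in these comparisons, in the same order. The summed share of reads of the fibroblast markers was 1.06% to 2.99% in FL-HER2 and 0.620% to 1.41% in p95HER2 at day 10. At day 22 it was 0.179% to 0.470% in FL-HER2 and 0.235% to 0.448% in p95HER2. The 20 skeletal muscle markers took 0.0490% to 3.84% of reads in FL-HER2 at day 10, 0.0259% to 0.934% in FL-HER2 at day 22, 0.00350% to 1.05% in p95HER2 at day 10 and 0.00129% to 0.605% in p95HER2 at day 22. High skin marker levels set 11 libraries apart, 2 and 5 at day 10 and 1 and 3 at day 22 in FL-HER2 and p95HER2.

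On a scale that allows genes to be compared (CPM divided by exon length in kilobases, RPKM), Tfap2c was the most abundant of the 8 transcripts. Over the 39 libraries its mean level was 50.2 RPKM, followed by Foxa1 at 34.6 RPKM, Tfap2a at 22.4 RPKM, Grhl2 at 11.2 RPKM, Cited1 at 9.69 RPKM and Gata3 at 3.80 RPKM. The receptors stood last, Esr1 at 1.38 RPKM and Pgr at 0.418 RPKM. The 2 places at the top could not be told apart everywhere: the ranges of Tfap2c and Foxa1 overlapped in both day 10 groups and were separate in both day 22 groups. Gata3, Esr1 and Pgr did not overlap with each other in any group. Cited1 had the most variable place, below Grhl2 at day 10 and above it at day 22 by the group means of both constructs, with a range that overlapped that of Grhl2 in all groups except p95HER2 at day 10.

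Of the 8 genes, 6 were matched to RefSeq promoter windows, which run from 250 bases before to 50 bases after a start site (build GRCm38.p6). The windows were searched on both strands for the letters of an AP-2 motif (GCCNNNGGC), a GATA motif (AGATAA), a FOXA motif (TGTTTAC), a Grainyhead motif (AACCGGTT), and the palindromic estrogen and progesterone response elements. These 6 genes have 10 windows, of which 3 held AP-2 letters, 1 each of Esr1, Gata3 and Cited1; of all 32851 windows of this length 16.59% held them. The only other match was 1 FOXA motif in the window of Foxa1, against 3.65% of all windows. The share of G and C was 67.33% in the Gata3 window, 64.67% in the Cited1 window and 46.33% in the Esr1 window with AP-2 letters. The median of all windows was 52.67%. The upstream 250 bases of the windows with AP-2 letters are shown, with AP-2 matches in capitals. A match is a description and not a binding site, and regulation of these genes by AP-2 factors was not tested.
Esr1, chr10:4611739-4611988, plus strand: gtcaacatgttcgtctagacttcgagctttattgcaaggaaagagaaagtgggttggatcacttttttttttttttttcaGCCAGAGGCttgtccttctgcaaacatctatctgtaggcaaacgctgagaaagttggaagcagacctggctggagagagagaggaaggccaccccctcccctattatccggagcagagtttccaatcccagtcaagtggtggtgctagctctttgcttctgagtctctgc
Gata3, chr2:9878601-9878850, minus strand: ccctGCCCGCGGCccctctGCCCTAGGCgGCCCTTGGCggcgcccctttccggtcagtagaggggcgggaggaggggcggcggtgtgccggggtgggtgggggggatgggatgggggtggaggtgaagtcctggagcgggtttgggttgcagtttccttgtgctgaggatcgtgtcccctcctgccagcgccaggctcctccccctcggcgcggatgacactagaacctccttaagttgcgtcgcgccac
Cited1, chrX:102250777-102251026, minus strand: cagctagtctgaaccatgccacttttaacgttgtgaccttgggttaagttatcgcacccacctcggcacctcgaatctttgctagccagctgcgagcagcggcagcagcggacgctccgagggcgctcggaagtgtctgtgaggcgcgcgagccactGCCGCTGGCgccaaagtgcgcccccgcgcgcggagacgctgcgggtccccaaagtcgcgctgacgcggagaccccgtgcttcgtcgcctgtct
The match starts 170 bases before the start site in Esr1, in 1 of its 2 windows, and 93 bases before it in Cited1, in 1 of its 3 windows. In Gata3, 3 matches start 246, 231 and 221 bases before the start site.

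Between day 10 and day 22 the receptor and lineage genes did not all move in the same direction. Esr1 and Gata3 fell and Tfap2c rose in both constructs, and Cited1 rose most in p95HER2, while Foxa1 and Grhl2 passed the test in neither construct. In FL-HER2, 5 of the 8 genes passed the test (2 higher and 3 lower; limma, Benjamini-Hochberg adjusted p under 0.05), where 51.4% of all genes tested passed (20.7% higher and 30.6% lower). In p95HER2, 5 of 8 passed (2 higher and 3 lower), where 35.2% of all genes did (16.6% higher and 18.6% lower). The 2 comparisons between constructs and the 2 over time reuse the same 4 groups of libraries, so their values are not independent of each other.

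**Figure D1:**
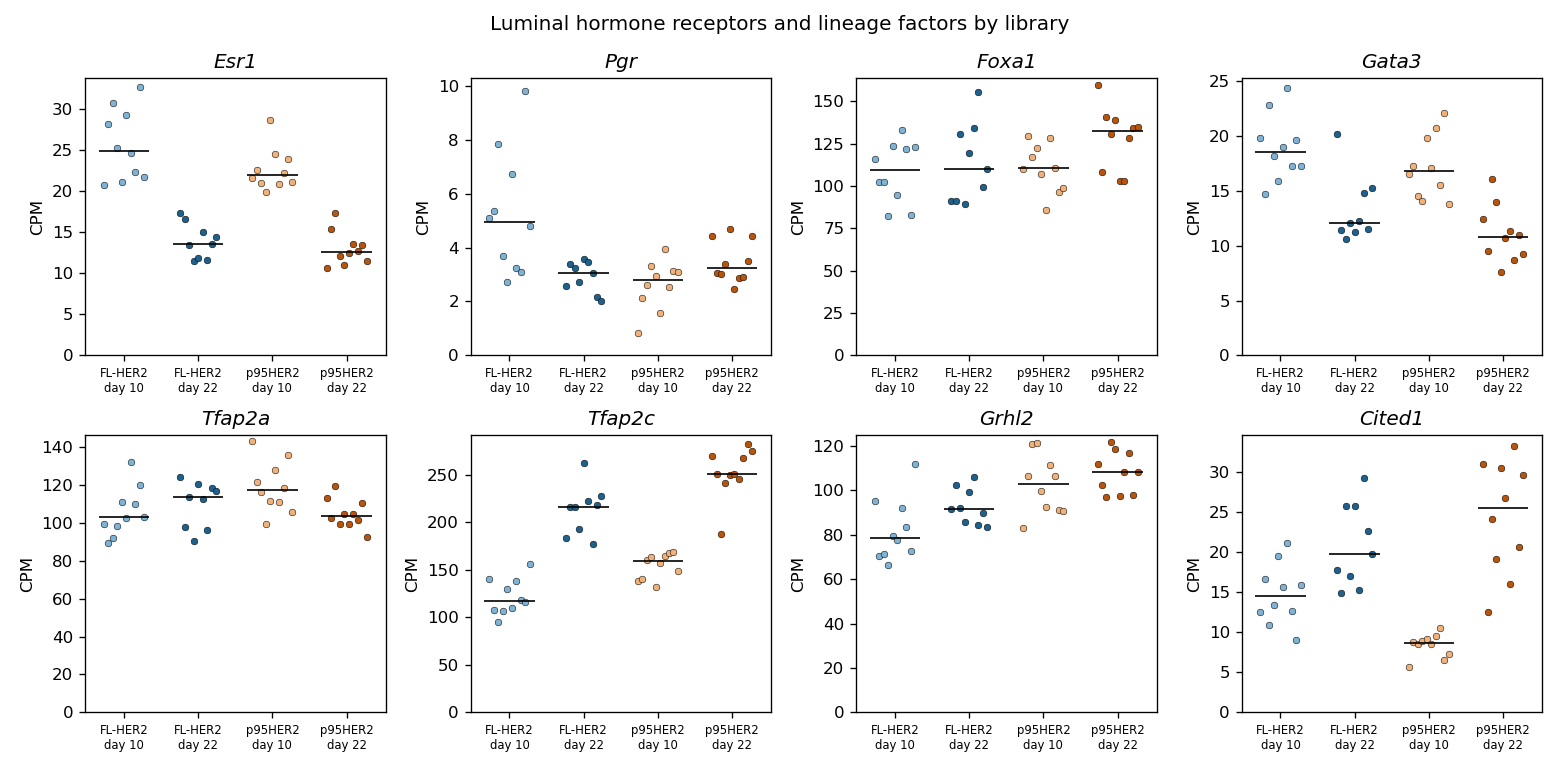
Level in CPM (y axis, linear, from 0) of each gene in each library, by construct and day; points are libraries and bars are group medians. Esr1 points lie lower and Tfap2c points higher at day 22 than at day 10 in both constructs, with no overlap, and Cited1 is lowest in p95HER2 at day 10.

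Esr1 (GRCm38 chromosome 10, 4611593 to 5005614, plus strand) had 20.7 CPM in the lowest, 24.9 CPM in the median and 32.6 CPM in the highest FL-HER2 library at day 10. At day 22 these values were 11.5, 13.5 and 17.3 CPM. The p95HER2 libraries went from 19.9, 21.9 and 28.6 CPM on day 10 to 10.7, 12.6 and 17.3 CPM on day 22. Every day 10 library of either construct lay above every day 22 library of either construct. The log2 change with time was -0.99 ± 0.10 in FL-HER2 (± SE, adjusted p = 2.432e-10), or 0.502 of the day 10 level on the scale of the fit. In p95HER2 it was -0.87 ± 0.10 (adjusted p = 4.699e-09), or 0.547 of the day 10 level on that scale. The change with time did not pass the test for a difference between constructs (0.12 ± 0.14, adjusted p = 0.566). Between constructs Esr1 did not pass at either day: the difference, p95HER2 minus FL-HER2, was -0.23 ± 0.10 at day 10 (95% interval -0.42 to -0.03, adjusted p = 0.0647) and -0.10 ± 0.10 at day 22 (-0.30 to 0.10, adjusted p = 0.657). The day 10 difference of Esr1 did pass with the pan-epithelial score as a covariate (-0.28 ± 0.12, adjusted p = 0.0435) and when any 1 of 4 libraries was left out (adjusted p 0.0264 to 0.0398). With the fibroblast score as a covariate the fall of Esr1 was -0.99 in FL-HER2 and -0.87 in p95HER2, both past the test. With the pan-epithelial score as a covariate it was -0.90 and -0.78, also past the test.

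Pgr (chromosome 9, 8899833 to 8968611, plus strand) was scarce, with 28 to 339 reads per library. In FL-HER2 it had 2.71, 4.94 and 9.82 CPM (lowest, median, highest) at day 10 and then 2.02, 3.04 and 3.58 CPM on day 22. In p95HER2 it had 0.821, 2.78 and 3.94 CPM on day 10 and then 2.48, 3.23 and 4.70 CPM on day 22. The FL-HER2 day 10 group was high and wide, with a coefficient of variation of 43.9%, and its lower libraries overlapped all 3 other groups. Pgr was lower in p95HER2 than in FL-HER2 at day 10, with a log2 difference of -1.04 ± 0.22 (adjusted p = 0.0002255) and fell with time in FL-HER2, with a log2 change of -0.86 ± 0.22 (adjusted p = 0.001503). At day 22 the construct difference was 0.24 ± 0.22 (-0.20 to 0.68, adjusted p = 0.619), and the change with time in p95HER2 was 0.42 ± 0.22 (-0.01 to 0.85, adjusted p = 0.134). The change of the construct difference between days was 1.29 ± 0.31 (adjusted p = 0.003762). With the fibroblast score as a covariate the day 10 difference was -0.74 ± 0.35 (adjusted p = 0.196) and the FL-HER2 change with time was -0.40 ± 0.48 (adjusted p = 0.741), so both Pgr calls were lost. The fibroblast score did not overlap between the days in FL-HER2, so that fit can hardly separate time from fibroblast content. Quantile normalization also ended the FL-HER2 call (-0.54 ± 0.25, adjusted p = 0.0658). With the pan-epithelial score as a covariate Pgr was at -0.65 ± 0.22 for the day 10 difference and at -1.48 ± 0.26 for the FL-HER2 change, both past the test, and its p95HER2 change with time turned to -0.21 ± 0.26 (adjusted p = 0.585).

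The number of Pgr reads per Esr1 read sets Pgr against Esr1 inside each library. Its median was 0.206 in FL-HER2 at day 10 (range 0.129 to 0.301) and 0.119 in p95HER2 at day 10 (0.0381 to 0.189). At day 22 it was 0.229 in FL-HER2 (0.141 to 0.301) and 0.245 in p95HER2 (0.174 to 0.429). Pgr in the p95HER2 day 10 libraries was thus low relative to Esr1 as well as in CPM, and the ratio ranges of the day 10 groups overlapped. In FL-HER2, where Pgr and Esr1 both fell with time, the ratio did not fall (log2 mean -2.39 at day 10 and -2.27 at day 22).

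Foxa1 (chromosome 12, 57540628 to 57546916, minus strand) passed the test in none of the 5 comparisons. In FL-HER2 its lowest, median and highest levels were 82.3, 109 and 133 CPM on day 10 and then 89.7, 110 and 155 CPM on day 22. In p95HER2 they were 85.6, 110 and 129 CPM on day 10 and then 103, 132 and 160 CPM on day 22. All 4 groups overlapped. The 95% interval of the change with time was -0.24 to 0.13 on the log2 scale in FL-HER2 and -0.04 to 0.33 in p95HER2. Between constructs it was -0.20 to 0.16 at day 10 and 0.00 to 0.37 at day 22 (adjusted p = 0.309). With the muscle score as a covariate the change of the construct difference between days did pass for Foxa1 (0.33 ± 0.11, adjusted p = 0.0445, against 0.20 ± 0.13 without it). Foxa1 reads per Esr1 read had a median of 4.52 at day 10 and 7.78 at day 22 in FL-HER2, and of 5.05 and 10.0 in p95HER2; in p95HER2 the ranges of the days did not overlap (highest 6.17 at day 10, lowest 7.01 at day 22).

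Gata3 (chromosome 2, 9857078 to 9890034, minus strand) fell with time in both constructs. Its lowest, median and highest levels in FL-HER2 were 14.7, 18.5 and 24.4 CPM on day 10 and then 10.6, 12.02 and 20.2 CPM on day 22. In p95HER2 they were 13.8, 16.8 and 22.1 CPM on day 10 and then 7.58, 10.8 and 16.1 CPM on day 22. The days overlapped in both constructs, in FL-HER2 through replicates 1, 7 and 9 of day 22, of which replicate 1 stood far above its group. The log2 change was -0.64 ± 0.13 in FL-HER2 (adjusted p = 5.273e-05), and for p95HER2 -0.71 ± 0.12 (adjusted p = 1.126e-05), with a difference between them of -0.07 ± 0.17 (adjusted p = 0.802). Between constructs Gata3 passed at neither day (-0.20 ± 0.12 at day 10, 95% interval -0.44 to 0.04, adjusted p = 0.193; -0.27 ± 0.13 at day 22, -0.52 to -0.03, adjusted p = 0.241). With the fibroblast score as a covariate the falls were -1.12 and -0.94, and with the pan-epithelial score -0.50 and -0.57, all past the test.

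The AP-2 gene Tfap2c (chromosome 2, 172549593 to 172558622, plus strand) rose with time in both constructs. It had 95.2, 117 and 156 CPM (lowest, median, highest) in FL-HER2 at day 10 and then 177, 217 and 262 CPM on day 22. In p95HER2 it had 131, 159 and 169 CPM on day 10 and then 187, 251 and 282 CPM on day 22. Every day 22 library lay above every day 10 library, whichever the construct. The rise was 0.69 ± 0.07 in FL-HER2 (adjusted p = 1.143e-10; 1.62-fold), and for p95HER2 0.64 ± 0.07 (adjusted p = 6.331e-10; 1.56-fold), and the difference between these rises was -0.05 ± 0.10 (adjusted p = 0.737). Esr1 and Tfap2c were thus the 2 of 8 genes whose days did not overlap in FL-HER2, where 9.25% of all genes tested did not; in p95HER2 they were joined by Cited1, 3 of 8, where 7.17% did not. The rise of Tfap2c was 0.65 and 0.62 with the fibroblast score and 0.70 and 0.65 with the pan-epithelial score as a covariate, past the test each time.

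Tfap2a (chromosome 13, 40715302 to 40738376, minus strand) passed the test in 1 of 5 comparisons. It had 89.3, 103 and 132 CPM in FL-HER2 at day 10, 90.3, 113 and 124 CPM in FL-HER2 at day 22, 99.2, 117 and 143 CPM in p95HER2 at day 10 and 92.4, 104 and 119 CPM in p95HER2 at day 22. The groups overlapped throughout. It fell with time in p95HER2, with a log2 change of -0.25 ± 0.06 (adjusted p = 0.002699), a call that was lost with the pan-epithelial score as a covariate (-0.13 ± 0.09, adjusted p = 0.249). In FL-HER2 the change was -0.06 ± 0.07 (95% interval -0.19 to 0.07, adjusted p = 0.470), and with the number of digits of the tumor number as a term it passed at -0.29 ± 0.11 (adjusted p = 0.0458). That term leaves the FL-HER2 day 10 level to 2 libraries, which had 120 and 132 CPM of Tfap2a. The other 8 libraries of that group had 89.3 to 111 CPM. The difference of p95HER2 from FL-HER2 was 0.11 ± 0.06 at day 10 (adjusted p = 0.157) and -0.07 ± 0.07 at day 22 (adjusted p = 0.630). With log2(CPM + 1), median-of-ratios size factors or voom the day 10 difference of Tfap2a did pass, at 0.16 to 0.17 (adjusted p 0.0382 to 0.0441). Under 16 other settings it did not pass, and with the tumor number term it was -0.11 ± 0.10 (adjusted p = 0.543).

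Within single libraries, the number of Tfap2c reads per Tfap2a read was higher at day 22 in its median. In FL-HER2 its lowest, median and highest values were 0.966, 1.09 and 1.52 at day 10 and 1.48, 1.95 and 2.22 at day 22. In p95HER2 they were 0.963, 1.31 and 1.65 at day 10 and 1.57, 2.43 and 2.97 at day 22. Both pairs of ranges met only at their ends, and the lowest day 22 library of p95HER2 was replicate 3. As a ratio of reads in 1 library it does not depend on the scaling between libraries.

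**Figure D2:**
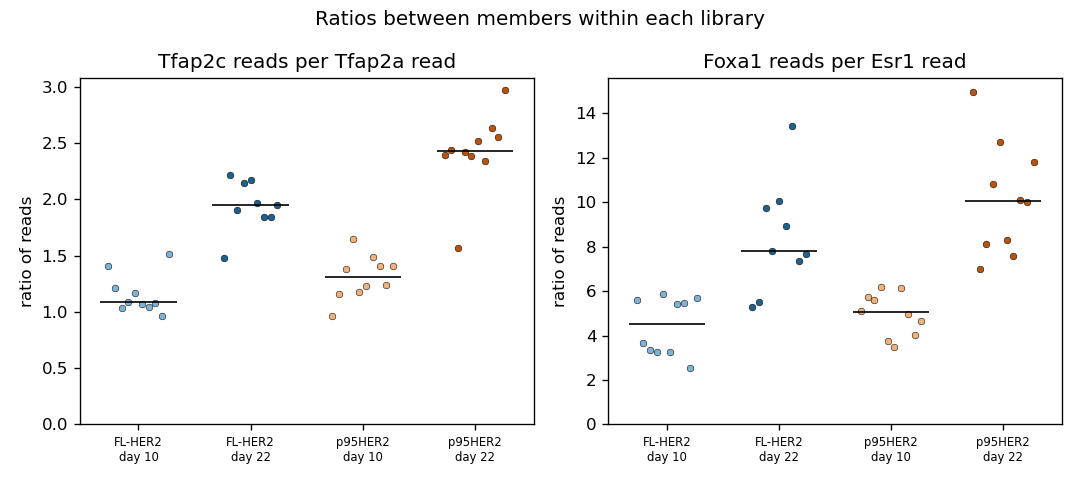
Reads of Tfap2c per read of Tfap2a (left) and of Foxa1 per read of Esr1 (right) in each library, on linear axes from 0, not corrected for transcript length; points are libraries and bars are group medians. Both ratios have higher medians at day 22, 1.95 and 2.43 for Tfap2c to Tfap2a against 1.09 and 1.31 at day 10.

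Grhl2 (chromosome 15, 37233036 to 37363569, plus strand) had 66.5, 78.5 and 112 CPM in FL-HER2 at day 10 and then 83.6, 91.6 and 106 CPM on day 22. In p95HER2 it had 83.1, 103 and 121 CPM on day 10 and then 97.2, 108 and 122 CPM on day 22. The p95HER2 libraries were shifted upward at both days and overlapped with FL-HER2. The change with time was 0.07 ± 0.07 in FL-HER2 (95% interval -0.06 to 0.20, adjusted p = 0.376) and 0.02 ± 0.06 in p95HER2 (-0.11 to 0.14, adjusted p = 0.858). The FL-HER2 change of Grhl2 did pass with log2(CPM + 1) (0.19, adjusted p = 0.0370), voom (0.19, adjusted p = 0.0434) and the T cell score as a covariate (0.17, adjusted p = 0.0286).

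Cited1 (chromosome X, 102247381 to 102252181, minus strand) had the largest fitted change of the 8 genes, its rise with time in p95HER2. In FL-HER2 its lowest, median and highest levels were 9.07, 14.5 and 21.2 CPM on day 10 and then 14.9, 19.8 and 29.2 CPM on day 22. In p95HER2 they were 5.69, 8.63 and 10.5 CPM on day 10 and then 12.6, 25.5 and 33.2 CPM on day 22. All p95HER2 day 22 libraries lay above all p95HER2 day 10 libraries, whereas the FL-HER2 days overlapped. The rise with time was 1.43 ± 0.16 in p95HER2 (adjusted p = 1.797e-09; 2.70-fold). In FL-HER2 it was 0.39 ± 0.16 (adjusted p = 0.04138, 1.31-fold). This FL-HER2 call was lost when any 1 of 9 libraries was left out (FL-HER2 day 10 replicates 1, 3, 4, 8 and 9 and day 22 replicates 3, 5, 7 and 8, adjusted p 0.0523 to 0.0973). It was also lost under 8 of 19 other settings. Among these were the fibroblast score (0.27 ± 0.35, adjusted p = 0.765) and the pan-epithelial score (0.20 ± 0.21, adjusted p = 0.489) as covariates. The difference between the rises was 1.04 ± 0.23 (adjusted p = 0.001277). Relative to Esr1, Cited1 went from a median of 0.579 reads per Esr1 read to 1.48 in FL-HER2 and from 0.368 to 1.87 in p95HER2.

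Comparing constructs at day 10, p95HER2 tumors had less Pgr and Cited1 and slightly more Tfap2c and Grhl2 RNA than FL-HER2 tumors. These were 4 of 8 genes called, 2 higher and 2 lower, against 41.3% of all genes tested (15.2% higher and 26.1% lower), and none of the 8 had groups that did not overlap, against 3.14%. Cited1 was lower, at -0.85 ± 0.16 (adjusted p = 4.454e-05; 0.555 of the FL-HER2 level), Tfap2c was higher by 0.29 ± 0.07 (adjusted p = 0.0006677; 1.22-fold) and Grhl2 by 0.27 ± 0.06 (adjusted p = 0.0008637; 1.21-fold). In the same comparison 13 of 16 fibroblast markers and 20 of 20 muscle markers were lower in p95HER2. With the muscle score as a covariate Grhl2 was at 0.15 ± 0.07 and no longer passed (adjusted p = 0.118). With the fibroblast score as a covariate Cited1 alone passed, and Tfap2c (0.26 ± 0.11, adjusted p = 0.135) and Grhl2 (0.16 ± 0.10, adjusted p = 0.365) did not. Among libraries with 0.1% to 1.3% of reads in muscle markers, 3 of FL-HER2 and 4 of p95HER2 at day 10, these 4 calls were lost, and Cited1 was at -0.96 ± 0.28 (adjusted p = 0.0539), Pgr at -0.97 ± 0.34 (adjusted p = 0.111), Tfap2c at 0.14 ± 0.09 (adjusted p = 0.364) and Grhl2 at 0.04 ± 0.08 (adjusted p = 0.815). With the number of digits of the tumor number as a term, which leaves the FL-HER2 day 10 level to 2 libraries, Pgr alone passed, and Cited1 was at -0.77 ± 0.28 (adjusted p = 0.0647).

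At day 22 fewer genes differed between constructs. Tfap2c (0.24 ± 0.07, adjusted p = 0.03605) and Grhl2 (0.22 ± 0.07, adjusted p = 0.04636) were higher in p95HER2, 2 of 8 genes called against 4.52% of all genes tested (2.98% higher and 1.54% lower), and no gene of the 8 had separate groups, against 0.293%. Cited1 differed by 0.19 ± 0.16 (95% interval -0.12 to 0.51, adjusted p = 0.580). Both calls were close to the threshold. That of Tfap2c was lost without any 1 of FL-HER2 day 22 replicates 1, 3, 4 and 7 or p95HER2 day 22 replicates 1, 7, 8, 9 and 10 (adjusted p 0.0557 to 0.0950). That of Grhl2 was lost without any 1 of 18 libraries (FL-HER2 day 22 replicates 1, 3, 4, 7, 8 and 9, p95HER2 day 22 replicates 1, 4, 5, 7, 8, 9 and 10, FL-HER2 day 10 replicates 5, 6 and 8, and p95HER2 day 10 replicates 2 and 8; adjusted p 0.0511 to 0.1004). Of 12 T cell markers, 10 rose and 1 fell with time in FL-HER2, where 20.7% of all genes tested rose and 30.6% fell. At day 22, 7 of these markers were lower and 1 was higher in p95HER2, beside the shares of all genes given above. With the T cell score as a covariate Tfap2c was at 0.18 ± 0.08 (adjusted p = 0.324) and Grhl2 at 0.11 ± 0.07 (adjusted p = 0.528).

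The construct difference itself changed between days for Pgr and Cited1, 2 of 8 genes, both with a positive change, against 19.6% of all genes tested (13.5% positive and 6.2% negative). For both, the difference was negative at day 10 and not past the test at day 22. Without Pgr and Cited1, the other 6 genes had changes between days of -0.19 to 0.20 on the log2 scale. With the fibroblast score as a covariate the change was 1.04 ± 0.39 for Pgr (adjusted p = 0.147) and 1.11 ± 0.28 for Cited1 (adjusted p = 0.0207). In the muscle-limited libraries neither call was kept (Cited1 1.15 ± 0.35, adjusted p = 0.107; Pgr 1.13 ± 0.42, adjusted p = 0.207), and the tumor number term ended both as well (Cited1 0.97 ± 0.32, adjusted p = 0.110; Pgr 1.48 ± 0.44, adjusted p = 0.0709).

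**Figure D3:**
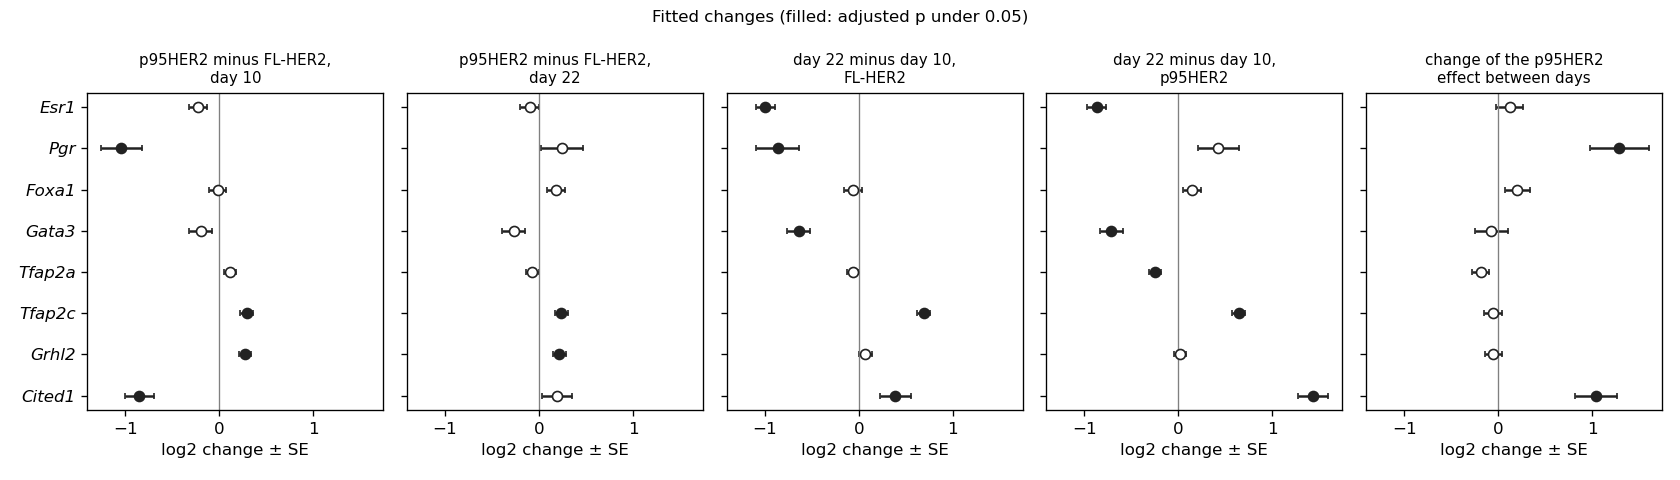
Fitted log2 change (x axis) with its SE for the 8 genes in the 5 comparisons; filled points have an adjusted p under 0.05. Esr1 and Gata3 lie left of 0 and Tfap2c right of 0 in both comparisons over time, while Pgr and Cited1 have the points far from 0 in the change between days (1.29 and 1.04).

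**Figure D4:**
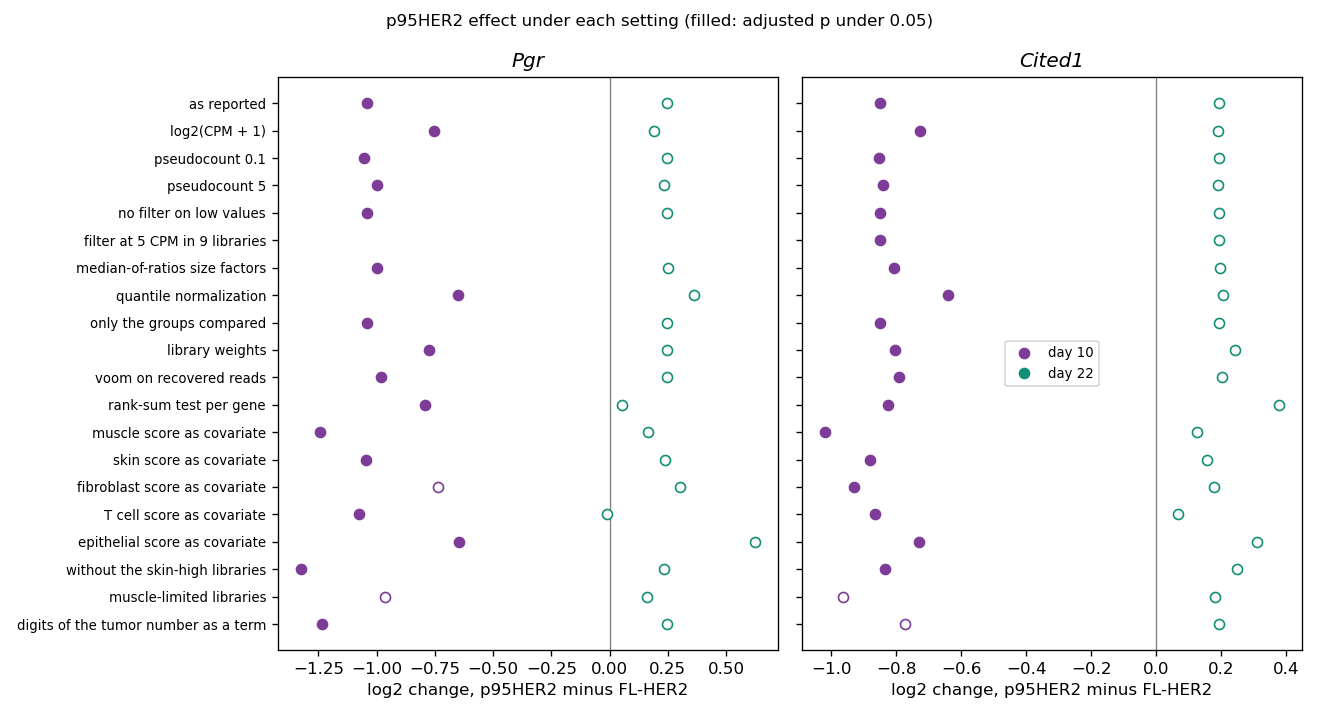
Log2 difference of p95HER2 from FL-HER2 (x axis) for Pgr and Cited1 at day 10 and day 22 under each setting of the fit (y axis); filled points have an adjusted p under 0.05. The day 10 values are negative under all settings shown (from -1.33 to -0.65 for Pgr and from -1.02 to -0.64 for Cited1), and no day 22 value passes; Pgr has no value under the filter at 5 CPM.

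Within groups, the members did not vary as 1 block. With group means removed, log2 levels over the 39 libraries had Pearson correlations of 0.51 between Foxa1 and Cited1, 0.44 between Esr1 and Gata3, and 0.44 between Tfap2c and Grhl2. Esr1 was negatively correlated with Tfap2c (-0.53), Foxa1 (-0.52), Grhl2 (-0.44) and Cited1 (-0.43), and the correlation of Esr1 with Pgr was 0.19. These points share libraries, size factors and tissue content, and the values are descriptions. With the muscle and T cell scores, Esr1 had correlations of 0.44 and 0.55, Foxa1 of -0.57 and -0.58 and Grhl2 of -0.50 and -0.47. Those of Tfap2c were -0.02 and -0.255, and those of Cited1 -0.27 and -0.22. For Gata3 they were -0.08 and 0.34, for Tfap2a 0.23 and 0.41, and for Pgr -0.235 and -0.32. The part of tissue content in the correlations between members was not tested. The genes most like Esr1 by this measure were Yap1 (0.77), Chd7 (0.76) and Ppp2r3a (0.75). For Tfap2c they were Stx16 (0.77), Ap5z1 (0.74) and Mplkip (0.73), and for Grhl2 Mfsd14b (0.80), Abcd3 (0.79) and the prolactin receptor gene Prlr (0.78). For Cited1 the highest values were those of Tesc (0.69), Col9a2 (0.68) and Pak4 (0.66). Pgr was most like Slc25a30 (0.74), Foxa1 most like Otof (0.73), Gata3 most like Ccnk (0.68) and Tfap2a most like Sf1 (0.81).

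Of 18 paralogs, 10 could be tested. With time, 3 rose and 4 fell in FL-HER2 (median -0.07, all genes tested -0.03), where 20.7% of all genes rose and 30.6% fell. In p95HER2 4 rose and 2 fell (median 0.25, all genes tested 0.00), where 16.6% of all genes rose and 18.6% fell. Gata4, a GATA factor of endodermal and cardiac tissues, rose by 1.60 ± 0.14 in FL-HER2 (adjusted p = 7.314e-12), and its rise with p95HER2 was 1.80 ± 0.14 (adjusted p = 2.298e-13), opposite to Gata3. Esrrg, an orphan estrogen-related receptor, rose by 0.55 ± 0.12 (adjusted p = 0.0002457) and 1.35 ± 0.12 (adjusted p = 8.677e-12). Tfap2b, the third AP-2 gene tested, fell, with a log2 change of -0.26 ± 0.07 (adjusted p = 0.001503) and -0.40 ± 0.07 (adjusted p = 6.382e-06), opposite to Tfap2c. Cited2 fell, with a log2 change of -0.28 ± 0.07 (adjusted p = 0.001639) and -0.26 ± 0.07 (adjusted p = 0.00395), opposite to Cited1. Esr2, the gene of estrogen receptor beta, was under the filter, with at most 1.09 CPM in any library.

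Among 13 other hormone receptor genes tested, 9 fell and 1 rose with time in FL-HER2 (median -0.60), where 30.6% of all genes fell and 20.7% rose. In p95HER2 6 fell and 1 rose (median -0.27), where 18.6% of all genes fell and 16.6% rose. At day 10, p95HER2 had 7 below and 1 above FL-HER2 (median -0.19), where 26.1% of all genes were lower and 15.2% higher. The retinoic acid receptor gene Rarg fell, with a log2 change of -0.60 ± 0.08 (adjusted p = 2.911e-08) and -0.59 ± 0.07 (adjusted p = 3.91e-08), whereas the mineralocorticoid receptor gene Nr3c2 rose in p95HER2 by 0.74 ± 0.14 (adjusted p = 7.51e-05). The glucocorticoid receptor gene Nr3c1 passed in no comparison. Stromal and adipose cells also express several of these receptors, Pparg among them, and the part of stromal content in these values was not tested.

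**Figure D5:**
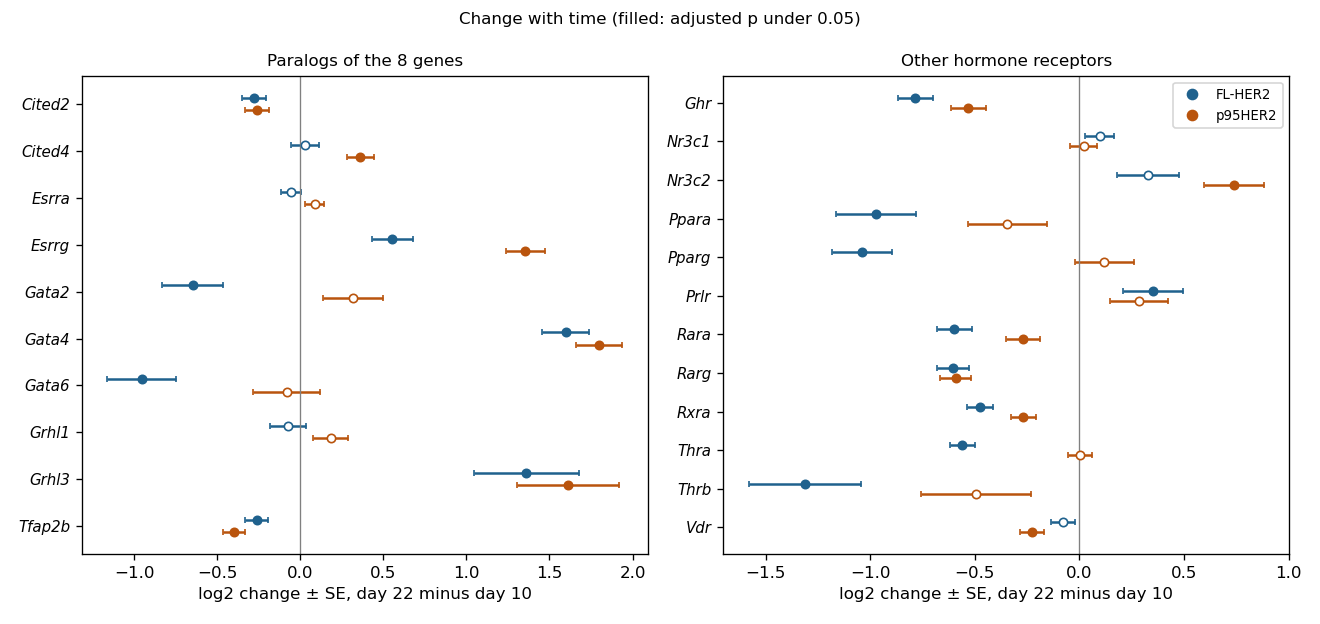
Log2 change from day 10 to day 22 (x axis) with its SE for the tested paralogs of the 8 genes (left) and for other hormone receptor genes (right), in FL-HER2 and p95HER2; filled points have an adjusted p under 0.05. Gata4, Grhl3 and Esrrg rise in both constructs, and Ghr, Rara, Rarg and Rxra fall in both; 1 receptor gene of the list is not plotted.

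Of 20 known target genes of the estrogen and progesterone receptors, 15 could be tested and most of these fell with time. Of the 15, 10 fell and 2 rose in FL-HER2 (median -0.86), where 30.6% of all genes tested fell and 20.7% rose. In p95HER2 9 fell and 2 rose (median -0.49), where 18.6% of all genes fell and 16.6% rose. Greb1, an estrogen-induced coactivator, fell in FL-HER2, with a log2 change of -1.99 ± 0.33 (adjusted p = 3.921e-06), and Wnt4, a paracrine signal downstream of Pgr, fell, with a log2 change of -1.48 ± 0.26 in FL-HER2 (adjusted p = 7.966e-06), and -0.82 ± 0.25 with p95HER2 (adjusted p = 0.00879). Igfbp4, an insulin-like growth factor binding protein, fell, with a log2 change of -1.27 ± 0.12 (adjusted p = 5.658e-11) and -1.06 ± 0.12 (adjusted p = 2.849e-09). Ccnd1, the cyclin D1 gene, rose instead, by 0.87 ± 0.08 (adjusted p = 7.834e-12) and 0.65 ± 0.07 (adjusted p = 5.957e-09). Some of these genes, such as Cxcl12, are also made by stroma, and the part of stromal content was not tested.

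Of the 15 tested target genes, 3 were higher and 5 lower in p95HER2 at day 10, where 15.2% of all genes tested were higher and 26.1% lower. At day 22, 4 were higher and 0 lower, where 2.98% of all genes were higher and 1.54% lower. Areg and Id4 differed between the constructs at both days. Areg, the estrogen-induced EGFR ligand amphiregulin, had 1.59, 3.25 and 6.78 CPM (lowest, median, highest) in FL-HER2 at day 10 and 19.4, 33.7 and 46.4 CPM in p95HER2, with no overlap (3.27 ± 0.30, adjusted p = 1.008e-10). At day 22 it had 0.625, 2.14 and 8.63 CPM in FL-HER2 and 6.89, 10.9 and 13.5 CPM in p95HER2, with overlap (2.37 ± 0.31, adjusted p = 1.422e-06). Id4, a helix-loop-helix inhibitor made in basal and progenitor cells, stood above its FL-HER2 level in p95HER2 by 1.56 ± 0.21 at day 10 (adjusted p = 3.08e-07) and 1.99 ± 0.21 at day 22 (adjusted p = 1.976e-08). Id4 fell with time in both constructs (-2.41 ± 0.21, adjusted p = 8.912e-12, and -1.98 ± 0.21, adjusted p = 7.771e-10).

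Of 14 estrogen receptor coregulators, p95HER2 had 8 above FL-HER2 at day 10 (median 0.21, all genes tested -0.04), where 15.2% of all genes were higher and 26.1% lower. The methyltransferase gene Kmt2d was higher at day 10 by 0.36 ± 0.12 (adjusted p = 0.01466). With time, 5 rose in FL-HER2, Kmt2d by 0.58 ± 0.12 (adjusted p = 0.0001456), and 2 fell in p95HER2, Zfpm1, a GATA cofactor, at -0.39 ± 0.09 (adjusted p = 0.0003434) and Nrip1 at -0.37 ± 0.09 (adjusted p = 0.002135). Over all genes tested, 20.7% rose and 30.6% fell in FL-HER2, and 16.6% rose and 18.6% fell in p95HER2.

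Hormone-sensing luminal markers together took 0.121% to 0.203% of reads. Of 18, 12 could be tested, and Agr2, Calca and Spdef were at 0 in 35, 22 and 10 of the 39 libraries. Of the 12, 8 fell and 1 rose with time in each construct (median -0.64 in FL-HER2 and -0.70 in p95HER2), with Krt19 at -1.26 ± 0.16 (adjusted p = 1.525e-08) and -0.99 ± 0.15 (adjusted p = 1.715e-06). Several markers of luminal progenitors went the other way: Kit rose by 0.78 ± 0.11 (adjusted p = 1.238e-07) and 1.17 ± 0.10 (adjusted p = 1.333e-11), Ehf by 0.47 ± 0.07 (adjusted p = 9.668e-07) and 0.50 ± 0.07 (adjusted p = 3.381e-07), and the alveolar factor Elf5 by 0.21 ± 0.09 (adjusted p = 0.04667) and 0.52 ± 0.09 (adjusted p = 8.163e-06). Over the whole progenitor and alveolar list of 14 tested genes, 4 rose and 5 fell in FL-HER2 (median -0.11), and 4 rose and 3 fell in p95HER2 (median 0.09). The list as a whole thus did not go the other way. Of all genes tested, the comparison for each marker list here, 20.7% rose and 30.6% fell in FL-HER2. In p95HER2 16.6% rose and 18.6% fell. Of 13 basal markers, 10 fell and 1 rose in each construct, among them Trp63 (-3.20 ± 0.18, adjusted p = 9.854e-17, and -2.47 ± 0.18, adjusted p = 4.797e-14) and Krt14 (-3.25 ± 0.18, adjusted p = 8.272e-17, and -2.20 ± 0.18, adjusted p = 1.137e-12). Skin also expresses Krt14 and Trp63, and the part of the skin-high libraries in these 2 values was not tested.

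Of 19 tested epithelial genes known to be bound by Grainyhead-like factors, 5 rose and 1 fell with time in FL-HER2 (median 0.06), where 20.7% of all genes rose and 30.6% fell. In p95HER2 7 rose and 1 fell (median 0.19), where 16.6% of all genes rose and 18.6% fell. The tight junction gene Marveld3 rose by 0.23 ± 0.06 (adjusted p = 0.002738) and 0.32 ± 0.06 (adjusted p = 7.905e-05), and Rab25, a trafficking GTPase gene, by 0.22 ± 0.06 (adjusted p = 0.003938) and 0.39 ± 0.06 (adjusted p = 3.94e-06). Between constructs 2 were higher and 2 lower at day 10, where 15.2% of all genes were higher and 26.1% lower. Cldn4 was at 1.51 ± 0.22 (adjusted p = 1.535e-06).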

How the data were processed

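Poly(A) RNA-seq of 39 libraries in 4 groups was analysed. Reads were aligned with STAR 2.4.2a to mm10, and DESeq2 was named, per the submitters' processing notes. The deposited table is called CPM but holds log2 values, as the values themselves show: the authors' values equal log2(read count divided by a size factor, plus 1). Whole reads were recovered from it for 100% of values (within 0.001 reads), and 1 CPM stands for 21.8 to 44.4 reads per library. CPM was computed from these reads, and RPKM from GENCODE M21 exon lengths (GRCm38, the assembly behind mm10).

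The deposited log2 values were fitted with limma 3.58.1 (R 4.3.3; 1 coefficient per group over all libraries, moderated with a mean trend) for the 13650 genes with at least 1 CPM in 9 libraries. There were 5 comparisons, with two-sided p-values adjusted over all genes by Benjamini-Hochberg (threshold 0.05). The ± after a log2 change is its SE, and bounds are 95% intervals. Covariate scores are mean log2 levels of marker lists. Tables and figures used Python 3.11.15, pandas 2.3.3, numpy 2.4.6 and matplotlib 3.10.9, and the fit was tested on simulated data.

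The members and lists were chosen with earlier results of these data known. Named are all 8 members, per list and comparison up to 4 called genes of smallest adjusted p (up to 2 for cell type lists), and the 3 genes most like each member by Pearson r of group-centred log2 levels. Other genes named (Nr3c1, Esr2, Cxcl12, undetected markers and genes read off beside these) were chosen after their values were seen. Results for 2 genes of these lists are not reported here.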

Additional observations from a re-analysis of the deposited data

Results flagged for a closer look

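In FL-HER2 at day 22, Gata3 was far higher in replicate 1 (20.2 CPM) than in the other 8 libraries. In p95HER2 at day 22, Tfap2c was far lower in replicate 3 (187.5 CPM) than in the other 9 libraries. These were the 2 flags in 32 tests of a member in a group, and chance flags about 1 in 20 groups. The construct difference changed between days by 1.286 on the log2 scale for Pgr and by 1.044 for Cited1, each by the test of that change itself (limma, adjusted p = 0.003762 and 0.001277). Fibroblast marker content also moved between these groups, and its values stand with the results above.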

How the results depend on the processing

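Of 40 single-gene results, 18 passed the test, and 7 of these passed under all 19 other settings that gave a value and all 39 omissions of 1 library: the changes with time of Esr1, Gata3 and Tfap2c in both constructs and of Cited1 in p95HER2. No called result changed sign, and 17 of the 22 others did. Leaving out 1 library gave 4 to 5 called members for the day 10 constructs, 0 to 2 for day 22, 4 to 5 for time in FL-HER2, 5 in every case for time in p95HER2 and 2 in every case for the change between days. At day 10, 4 calls became 1 with the fibroblast covariate, 0 in muscle-limited libraries and 1 with the tumor number term, while the share of all genes called went from 41.3% to 8.01%, 4.7% and 10.1%. At day 22, 2 calls became 0 with log2(CPM + 1), quantile normalization, voom, the rank-sum test and the muscle, skin and T cell covariates, and 1 without a filter, with only the groups compared, with the fibroblast and epithelial covariates, without the skin-high libraries and in muscle-limited libraries. Over time in FL-HER2, 5 calls became 3 with the fibroblast covariate and 3 in muscle-limited libraries (all genes 51.4%, then 4.37% and 25.7%). For the change between days, 2 calls became 1 with a filter at 5 CPM, which removed Pgr, 1 with the fibroblast covariate, 0 in muscle-limited libraries and 0 with the tumor number term (all genes 19.6%, then 19.5%, 3.18%, 1.12% and 1.71%). The cause was not tested, except that muscle-limited fits hold 21 libraries. The fibroblast score (mean log2) did not overlap between days in FL-HER2, with 11.93 to 13.19 at day 10 and 10.01 to 11.20 at day 22. In p95HER2 the days barely overlapped (11.04 to 12.15 and 10.08 to 11.07). Fits with this score can therefore hardly separate time from fibroblast content. Higher genes made up 36.7% of all calls at day 10 (49.1% to 63.4% under other scalings), 40.4% over time in FL-HER2 (48.3% to 62.5%), 47.1% in p95HER2 (47.5% to 64.6%) and 68.5% for the change between days (42.7% to 56.6%). Depth limits Pgr most, at 28 reads in its lowest library. No paired analysis was possible because the labels give no replicate numbers shared between groups.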
